A study of Mus musculus with 6 samples.

Results

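The cytosolic ribosomal proteins are the protein components of the ribosome that translates nuclear messages. They were taken from the expression tables as every gene whose symbol is Rpl or Rps followed by a number and at most a short suffix, together with the stalk proteins Rplp0, Rplp1 and Rplp2 and the laminin-receptor-related Rpsa, and without the ribosomal S6 kinases. This gave 83 of 23746 rows (0.35%), 51 of the large and 32 of the small subunit. Expression had been measured by RNA sequencing in bone marrow of C57BL/6 mice aged 12 weeks, and the study asked how loss of Diap1, which encodes the actin-nucleating formin mDia1, alters progenitors and myeloid cells. The 3 genotypes were wild type (WT), Diap1 +/- (Het) and Diap1 -/- (KO). How the allele was made is not given in the sources used here. Marrow of 4 mice was pooled per genotype, magnetic beads drew out the cells carrying both Gr1 and Mac1, antigens of granulocytes and monocytes, and the rest was depleted of committed cells to leave Lin- progenitors. The 6 libraries therefore form 6 groups of 1 library each, and both fractions of a genotype come from the same pool.

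A ribosome holds a large subunit, which forms peptide bonds, and a small subunit, which decodes the message, and nearly every ribosomal protein is present once per ribosome. The genes are spread over many chromosomes, and their messages carry a run of pyrimidines at the 5′ end, the TOP motif, through which mTOR signalling adjusts their translation. In blood formation these proteins are known for Diamond-Blackfan anaemia, a failure of red cell precursors caused by mutations in ribosomal protein genes. Ribosomal protein genes have also left many processed copies in mammalian genomes, so short fragments are hard to place among them.

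Values are FPKM, fragment numbers divided by transcript length and by the total of the library, with a deposited lower and upper bound. Sets of 3 values below are in the order WT, Het, KO. By the width of the bounds, rows with status OK and a positive lower bound held an implied 8630000 to 11600000 fragments per library. Other rows are not in this sum. The bounds of the members with FPKM of at least 1 spanned a median of 1.85% to 3.05% on either side of the value. The bounds come from single libraries and hold no spread between mice. What error they cover is not given in the sources used here, and their width differed between genes of similar level. In KO Lin-, Rps27 was 352 (bounds 241 to 464) and Rps27l 330 (bounds 309 to 350). Diap1 was 36.0, 24.2 and 6.07 in Lin- and 57.1, 34.1 and 4.07 in Gr1+Mac1+ libraries, lower with each copy lost. All 5 listed marker genes of the myeloid fraction (Itgam, Itgb2, Csf3r, Ly6c1 and Ly6c2) were higher in Gr1+Mac1+ libraries by limma. Csf3r is not an antigen of the sort, and Ly6g, which was also looked for, had no row. The library labelled Het Lin- stood apart: the summed FPKM of 11 secondary and tertiary granule genes was 8149 there, against 51.6 in WT Lin- and 68.8 in KO Lin-, and 137962 to 166559 in the Gr1+Mac1+ libraries. Summed erythroid markers (9 genes) were 2164 to 2273 in Lin- and 289 to 501 in Gr1+Mac1+ libraries, of which Car1 alone made up 1445, 1423 and 1522 in Lin-. By limma 6 of the 9 were higher in Lin-, while Slc4a1 (24.95, 36.5 and 29.9; 162, 118 and 87.0) and Alas2 (18.7, 16.8 and 36.4; 124, 94.5 and 90.3) were higher in Gr1+Mac1+ libraries. The 8 stem and progenitor markers summed to 273 to 324 in Lin- and 169 to 182 in Gr1+Mac1+ libraries, 6 megakaryocyte markers to 223 to 456 and 38.8 to 53.2, and 6 stromal markers to 396 to 763 and 14.1 to 28.9. By limma, 5 of the 8 stem and progenitor markers were higher in Lin-, 1 was higher in Gr1+Mac1+ libraries and 2 did not pass. Sums had the opposite order, higher in Gr1+Mac1+ libraries, for 5 primary granule markers (316 to 443 and 3693 to 4378), 7 B lineage markers (10.6 to 26.7 and 294 to 348) and 8 T and NK markers (36.1 to 44.0 and 182 to 210.2). None of these marker genes was at 0 in any library, and their part in the differences between the fractions was not tested. The Het Lin- library enters every limma ratio between the fractions, and the counts, medians and shares are repeated without the Het pool after the rescaled values.

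Loci with a second row decided which members could be read on their own. At 4 loci, Rps27, Rpl26, Rpl30 and Rpl34, the tables list the member and also a row named for one of its copies at the same place, each row covering at least 90% of the other. RefSeq (GRCm38.p6) puts those copies on other chromosomes, Rps27rt (listed as Gm9846) at chr9:114982366-114982739, Gm15772 at chr5:3236390-3236928, Gm12191 at chr11:49678620-49679143 and Rpl34-ps1 at chr6:71124589-71125001. In the tables the pairs lie at chr3:90212667-90213648 (Rps27), chr11:68901566-68904534 (Rpl26), chr15:34440508-34443276 (Rpl30) and chr3:130726831-130730308 (Rpl34), and the copies have no other row. The coding sequences in the GENCODE M21 transcripts show how little separates member and copy. Rps27 and its copy were identical over all 255 coding nucleotides. Rpl26 differed from its copy at 2 of 438 positions (C177T and T288C), Rpl30 at 1 of 348 (G96A) and Rpl34 at 2 of 354 (T132C and C318G), counted from the first base of the start codon, with the base of the member first. The stretches below hold bases 56 to 96 of Rps27, 157 to 197 of Rpl26, 76 to 116 of Rpl30 and 112 to 152 of Rpl34, with a differing base in capitals.
Rps27: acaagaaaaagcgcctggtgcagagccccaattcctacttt
Rps27rt: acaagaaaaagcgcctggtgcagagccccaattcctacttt
Rpl26: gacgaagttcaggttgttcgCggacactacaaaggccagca
Gm15772: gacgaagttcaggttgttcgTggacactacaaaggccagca
Rpl30: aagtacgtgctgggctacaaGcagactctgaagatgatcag
Gm12191: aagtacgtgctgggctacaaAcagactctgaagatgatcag
Rpl34: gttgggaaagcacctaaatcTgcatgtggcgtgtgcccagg
Rpl34-ps1: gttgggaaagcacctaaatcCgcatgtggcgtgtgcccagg

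Rps27, which lies on the body of the small subunit, was 4.63, 593 and 352 in Lin- and 5.79, 8.53 and 571 in Gr1+Mac1+ libraries. Its level was thus low in both WT libraries and in Het Gr1+Mac1+, and high in Het Lin- and both KO libraries. The row of its copy was 3116, 2714 and 2938 in Lin- and 2548, 2212 and 1911 in Gr1+Mac1+ libraries, with the status LOWDATA and a lower bound of 0 in every library. Added together, the rows at the Rps27 locus gave 3120.2, 3307 and 3290.2 in Lin- and 2554, 2221 and 2481 in Gr1+Mac1+ libraries. The highest genotype exceeded the lowest 128-fold (Lin-) and 98.6-fold (Gr1+Mac1+) for Rps27 alone, and 1.06-fold and 1.15-fold for the sum. For the row of the copy alone these values were 1.15-fold and 1.33-fold. Rpl26, at the rim of the peptide exit tunnel, was 143, 183 and 109 in Lin- and 23.2, 3.90 and 38.3 in Gr1+Mac1+ libraries, lowest in Het Gr1+Mac1+. With Gm15772, also of status LOWDATA, the sums were 2433, 2684 and 2793 and 1318, 1274 and 1237. The spread over the Gr1+Mac1+ genotypes was 9.83-fold for Rpl26 and 1.07-fold for the sum. Gm15772 alone was 1295, 1270 and 1199 there, a 1.08-fold spread, and Rpl26 made up 0.306% to 3.10% of the sum. The sum would therefore change little whatever Rpl26 did. Rpl30 (63.0, 59.97 and 55.9; 21.5, 23.9 and 16.3) and Rpl34 (39.4, 35.9 and 40.1; 14.4, 14.4 and 11.8) held between 0.954% and 3.37% of the sum at their loci in every library. Their sums were 1873, 1887 and 1845 and 1997, 2251 and 2117 in Lin-, and 1117, 966 and 1158 and 1295, 1249 and 1239.8 in Gr1+Mac1+ libraries. All 4 sums lie among the levels of the abundant ribosomal proteins in every library. How the authors' software divided fragments between such rows was not tested.

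**Figure D1:**
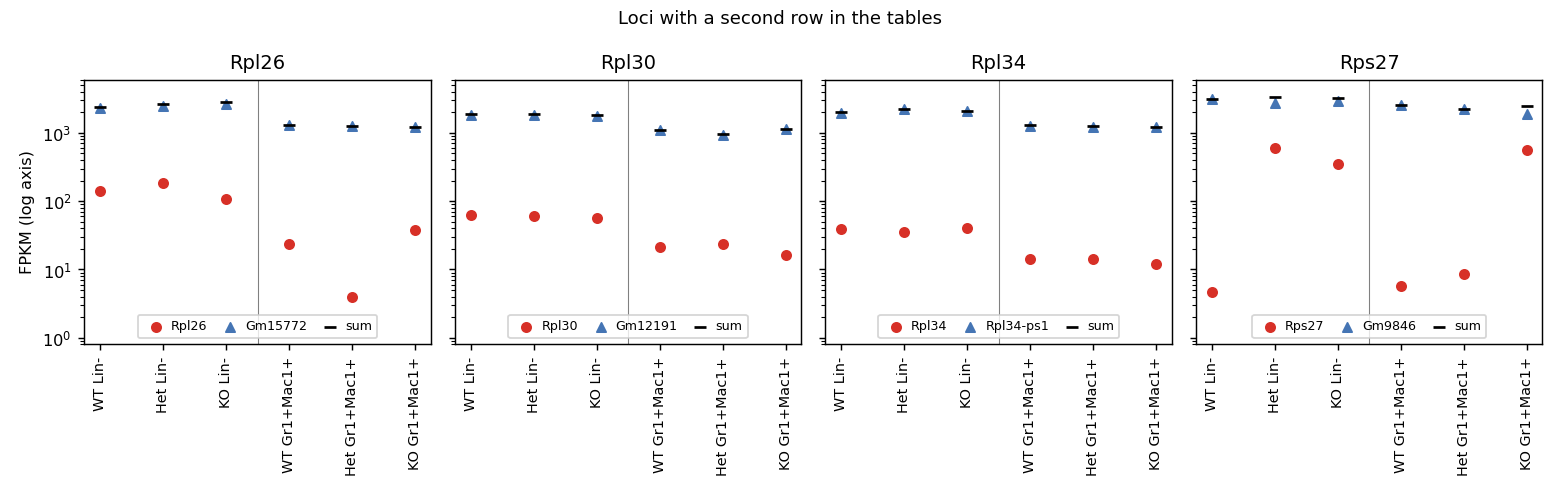
FPKM (log axis) of Rpl26, Rpl30, Rpl34 and Rps27 (red circles), of the second row at the same locus (blue triangles) and of their sum (black bars) in each of the 6 libraries, 1 library per group. Rps27 ranges from 4.63 to 593 between libraries while the sum at its locus stays between 2221 and 3307.

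Copies are not limited to these loci. Of the 83 members, 74 had at least 1 annotated transcript elsewhere with at least 95% identity over at least 80% of their coding length. By matching symbols, 14 had such a copy with a row of its own. Rps27 is not among the 14, because its copy Rps27rt is listed under another symbol, Gm9846. Some of the matched rows are protein-coding genes, such as Uimc1 for Rpl29 and Med21 for Rps26. Rps15a, listed at 87.8, 88.6 and 94.0 in Lin- and 49.6, 43.4 and 49.6 in Gr1+Mac1+ libraries, had the lowest mean of the small subunit, and 2 of its processed copies, Rps15a-ps4 and Rps15a-ps6, were listed at similar levels (97.9 and 119 in WT Lin-). Rps23 (1664 in WT Lin-) had Gm5148, identical over 398 nucleotides, at 230.0, and Rps24 (1467) had Gm9320 at 419. In addition, 34 small RNA rows lie inside 23 member loci, and whether the counting used strand is not given in the sources used here. Levels of all members with listed copies are uncertain to the extent that fragments were divided.

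Most ribosomal proteins were among the most abundant messages of both fractions. In each library 80 or 81 of the 83 had an FPKM of at least 1, with a median of 1681, 1662 and 1744 in the Lin- and 894, 827 and 852 in the Gr1+Mac1+ libraries. The medians over all genes with FPKM of at least 1 were 13.0 to 13.3 and 10.7 to 10.9. Of the 50 most abundant genes, 29 to 30 were members in each Lin- library and 9 to 11 in each Gr1+Mac1+ library. Within a library the middle of the members was narrow, with quartiles of 1144 and 2283 in WT Lin- and 534 and 1156 in WT Gr1+Mac1+.

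In the large subunit Rpl41, a very short basic protein, led with 6440.1, 5642 and 5587 in Lin- and 2694, 2824 and 2757 in Gr1+Mac1+ libraries. Rplp1 of the P stalk, which recruits the translation factors that hydrolyse GTP, followed with 3921, 3911 and 4059 and 1558, 1539 and 1479.8. Rpl23a, a docking site for the signal recognition particle near the tunnel exit, was 3219, 3302 and 3329 and 1791, 1734 and 1808. In all 3 genes every Lin- library lay above every Gr1+Mac1+ library. In the small subunit Rps12 was highest, at 4790.4, 4615 and 4845 and 2045, 1967 and 2140.2. Rps29, a zinc-binding protein of the head, stood at 2817, 2949 and 3000.2 and 1963, 1877 and 1920.0, and Rps20, also of the head, at 3027, 3081 and 3267 and 1534, 1365 and 1525. Again the fractions did not overlap, and Rps29 had the smaller gap.

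At the lower end were the paralogs, genes that resemble a ribosomal protein but are used in few tissues or at low levels. Rpl10l, a paralog of testis, was listed at 0 in all 6 libraries. Rpl39l, of male germ cells, was 0.489, 0.636 and 0 in Lin- and 0.324, 0 and 1.03 in Gr1+Mac1+ libraries. Rpl3l, of striated muscle, was 0.176, 0.275 and 0.290 and 0.776, 0.526 and 0.843, and neither reached the mean FPKM of 1 needed for a test. Rpl22l1 (236, 262 and 264; 142, 105 and 159) stood close to Rpl22, its relative with a role in T cell development, at 261, 255 and 266 and 120.0, 109 and 111. Rps27l, a p53 target, was 378, 350.4 and 329.7 and 143, 124 and 152. Rpl7l1 was 67.8, 59.6 and 59.6 and 31.9, 32.1 and 34.2, far below Rpl7 at 1850.2, 1909 and 1904 and 959, 864 and 959. Rps27l, Rpl22l1 and Rpl7l1 thus had all 3 Lin- libraries above all 3 Gr1+Mac1+ libraries, whereas the trace values of Rpl3l ran the other way.

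**Figure D2:**
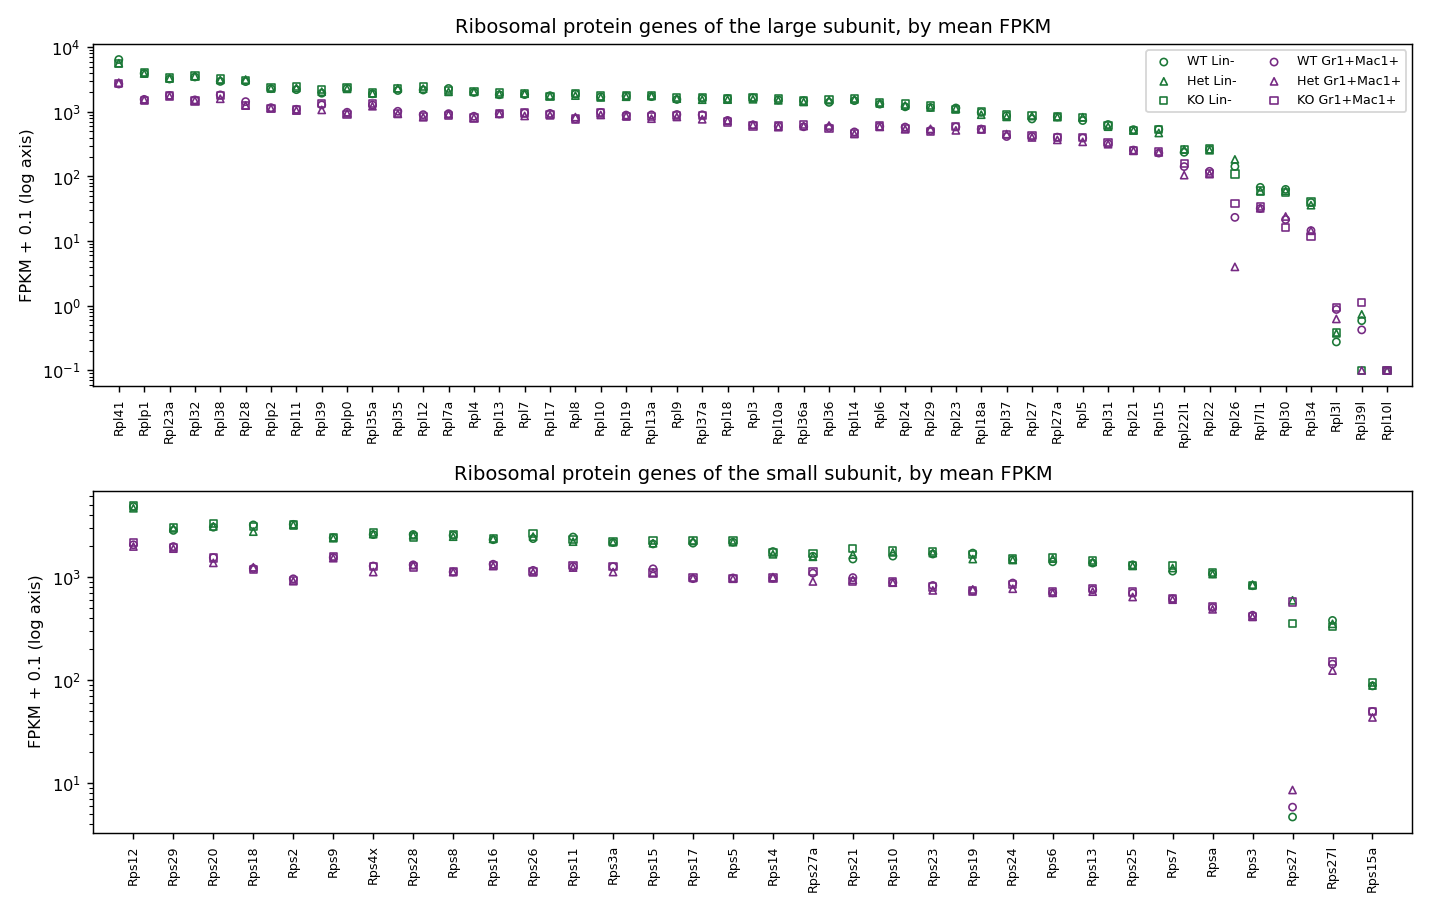
FPKM + 0.1 (log axis) of the 83 ribosomal protein genes in the 6 libraries, large subunit above and small subunit below, ordered by mean; green symbols are Lin- and purple symbols Gr1+Mac1+ libraries, with circles for WT, triangles for Het and squares for KO. Most genes form 2 tight bands of 3 libraries, Lin- above Gr1+Mac1+, while Rps27 and Rpl26 scatter.

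Ribosomal protein messages were higher in the Lin- progenitors than in the Gr1+Mac1+ cells for nearly the whole ribosome. Of the 80 members with a mean FPKM of at least 1, 79 were higher in Lin- by limma and 0 in Gr1+Mac1+ cells, on log2(FPKM + 1), with the pool as a block and Benjamini-Hochberg adjustment over 11572 genes at 0.05. Of all genes tested, 51.5% were higher in Lin-; 30.3% had the opposite call. Members had a median log2 ratio of 1.08, against 0.33 over all genes tested. Rps27 alone did not pass, at 1.66 (SE 1.46, limma adjusted p = 0.337). With the rows of each locus summed 80 of 80 members were higher in Lin-, but the second rows make up most of these sums. The second row at the Rps27 locus had a log2 ratio of 0.40 (SE 0.11) by itself. The members' summed FPKM was 22.6%, 23.2% and 23.9% of the summed FPKM of all rows in the Lin- libraries, and 10.2%, 10.2% and 9.88% in the Gr1+Mac1+ libraries. The means were 23.2% ± 0.643 and 10.1% ± 0.193 (SD, n = 3 pools), a 2.30-fold difference of 13.1 percentage points. The exact two-sided sign-flip permutation test over the 3 pools gave p = 0.25, which is the smallest p that 3 pools allow. The pools differ in genotype, so the spread between them holds genotype as well as noise. In bulk RNA, fewer cells with many ribosomal protein messages and less of these messages per cell cannot be told apart.

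FPKM is relative to the library total, and the totals were built differently. In Lin- libraries the top 10 genes took 8.72% to 10.5% of all FPKM, and in Gr1+Mac1+ libraries 25.1% to 27.8%. Relative to the total without these 10 genes, the sum of all members was 25.7% ± 0.570 and 13.7% ± 0.130 (SD, n = 3), a difference of 11.9 percentage points. Members among the 10, such as Rpl41 in Het Lin-, were left in the sum. The value is therefore a ratio and not a share, and this raises it in Het Lin-. With libraries rescaled by the median ratio over genes, 75 of 80 members were higher in Lin-, 0 in Gr1+Mac1+ cells, and 36.4% and 41.2% of all genes tested were called in these directions. The median was then 0.64 for the members and -0.05 for all genes. The 5 members that did not pass after rescaling were Rpl35a, Rps9, Rps27, Rps27a and Rps29. Without the Het pool, 79 of 80 were higher in Lin- and Rps27 was higher in Gr1+Mac1+ cells, at a log2 ratio of -0.48, with 49.0% and 29.0% of all genes tested called in these directions. The members' share of summed FPKM then differed by 13.2 percentage points, and their median was 1.04, with 1.12 in the large and 0.97 in the small subunit. Among the 76 members with no second row, no ratio moved by more than 0.19 when the Het pool was left out (Rpl22l1), and the median shift was 0.026. For the other gene lists described below, the counts higher in Lin- without the Het pool were 59 of 60 assembly factors, 13 of 15 polymerase I genes, 14 of 15 translation factors, 11 of 15 genes of the mTOR and S6 kinase list and 72 of 76 mitochondrial ribosomal proteins.

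The size of a gene's ratio recurred from pool to pool. Without the 4 members that share a locus, 76 of 76 had all 3 Lin- libraries above all 3 Gr1+Mac1+ libraries, a pattern found in 54.0% of all genes tested. Their ratios in single pools ran from 0.52 to 1.81, and the pool medians were 1.004 (WT), 1.10 (Het) and 1.08 (KO). The SD of a gene's ratio over the 3 pools was 0.08 in the median, against an SD of 0.22 between genes. The ratios of different pools, which share no library, correlated over the 76 genes with Spearman's rho of 0.72 (WT and Het), 0.86 (WT and KO) and 0.81 (Het and KO). The genes share the libraries of a pool and are not independent replicates.

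**Figure D3:**
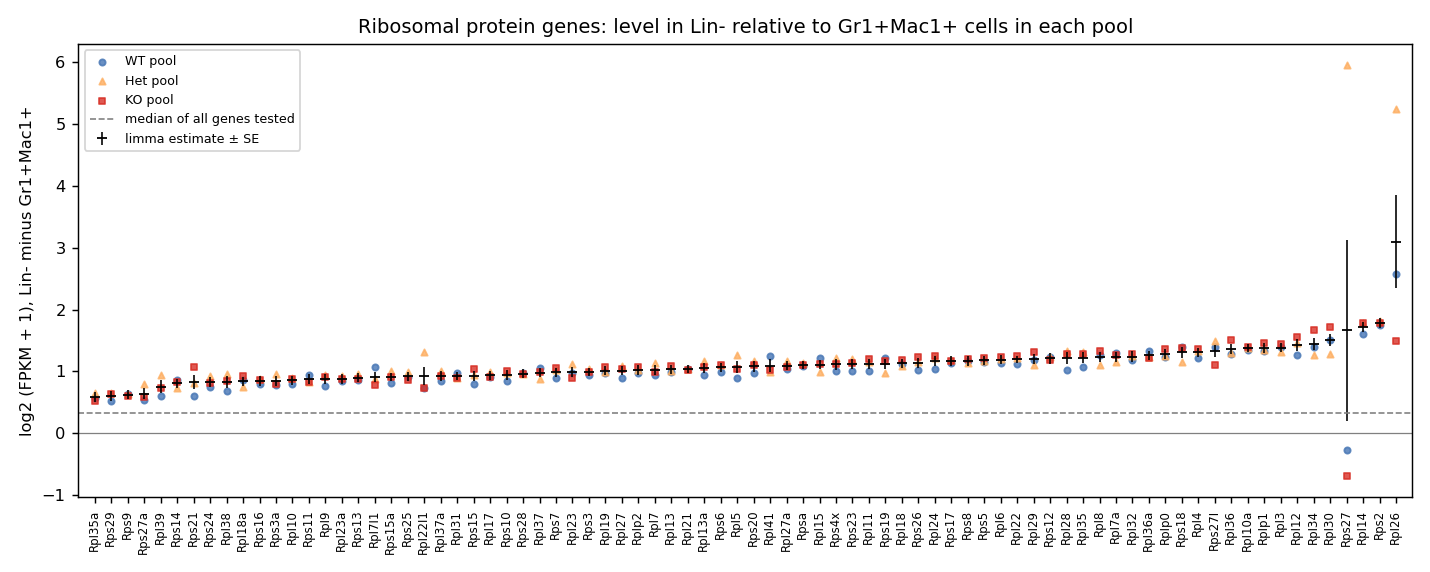
Difference in log2(FPKM + 1) between the Lin- and the Gr1+Mac1+ library of each pool (blue circles WT, orange triangles Het, red squares KO) for the 80 tested ribosomal protein genes, ordered by the limma estimate (black, with SE). The members other than Rps27 and Rpl26 lie between 0.52 and 1.81 in every pool, apart from the dashed median of all genes at 0.33.

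Rps2, which lines the channel where the message enters the small subunit, had the largest ratio among members with no second row at their locus. Its FPKM was 3222, 3193 and 3181 in Lin- and 957, 908 and 925 in Gr1+Mac1+ libraries, or 3199 ± 21.3 and 930.1 ± 24.9 (SD, n = 3), and the log2 ratio was 1.78 (SE 0.08, limma adjusted p = 0.000126). Rpl14, a large subunit protein, was 1489.8, 1557 and 1587 and 489, 454 and 461, a log2 ratio of 1.72 (SE 0.08, limma adjusted p = 0.000131). Both were over 3 times as high in every Lin- library as in the Gr1+Mac1+ library of its pool. Rpl26 (3.10 (SE 0.76, limma adjusted p = 0.0167)), Rpl30 (1.51 (SE 0.10, limma adjusted p = 0.000261)) and Rpl34 (1.44 (SE 0.10, limma adjusted p = 0.000295)) had high ratios as single rows. As sums with their second row the log2 ratios were 1.04 (SE 0.10) for Rpl26, 0.79 (SE 0.09) for Rpl30 and 0.75 (SE 0.09) for Rpl34, and the sum at the Rps27 locus was lowest of all 80 members, at 0.42 (SE 0.10, limma adjusted p = 0.0147). Without the WT pool, the single row of Rpl26 did not pass (3.36, SE 1.06, limma adjusted p = 0.064).

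At the other end, Rpl35a, mutated in some patients with Diamond-Blackfan anaemia, was 1897, 1923 and 1953 in Lin- and 1274, 1221 and 1356 in Gr1+Mac1+ libraries, a log2 ratio of 0.59 (SE 0.08, limma adjusted p = 0.00214). Rps29 had 0.61 (SE 0.08, limma adjusted p = 0.0025). Rps9, on the body near the message entry, was 2391, 2368 and 2396 and 1540.4, 1517 and 1579.6, with 0.63 (SE 0.08, limma adjusted p = 0.00163). These genes still had all Lin- libraries above all Gr1+Mac1+ libraries, by about 1.5 times rather than over 3 times. Rps27a, made as a fusion with ubiquitin, was 1582, 1565 and 1693 and 1086, 903 and 1124, with 0.64 (SE 0.09, limma adjusted p = 0.00238). Rpl39, a very short protein of the exit tunnel wall, was 1942, 2049 and 2219.5 and 1279.9, 1071 and 1339, with 0.75 (SE 0.10, limma adjusted p = 0.00203).

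By structure, no region of the ribosome departed from the rest in direction. All 48 tested large subunit members were higher in Lin- (median log2 ratio 1.10), as were 31 of 32 small subunit members (0.99). The summed FPKM of the large subunit exceeded that of the small subunit 1.27-fold ± 0.007 in Lin- and 1.19-fold ± 0.021 in Gr1+Mac1+ libraries (SD, n = 3), and the exact permutation p was again 0.25. Of the P stalk, 3 of 3 were higher in Lin-, with Rplp0 at 1.28 (SE 0.08), Rplp1 at 1.38 (SE 0.08) and Rplp2 at 1.02 (SE 0.08). Around the exit tunnel, 8 of 8 were higher (0.97), in the small subunit head 14 of 14 (0.98) and in its body and platform 16 of 17 (0.99).

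Genes known from blood disease had the same direction. Of the 19 members mutated in Diamond-Blackfan anaemia, 18 were higher in Lin- (median 1.07). Rps19, the gene most often mutated in that disease, was 1698, 1487 and 1644 in Lin- and 730.1, 756 and 729 in Gr1+Mac1+ libraries, with a log2 ratio of 1.12 (SE 0.09, limma adjusted p = 0.000369). Rps14, whose human counterpart lies in the region lost in 5q- syndrome, was 1758, 1653 and 1736 and 968, 994 and 976, with 0.81 (SE 0.08, limma adjusted p = 0.000677). Both had the fractions apart in all libraries. Rpl5 and Rpl11 bind the 5S RNA and, when free of ribosomes, the p53 regulator Mdm2. Rpl5 was 733, 825 and 814 and 393, 343 and 396, a log2 ratio of 1.07 (SE 0.10), and Rpl11 was 2203, 2336 and 2456 and 1094, 1053 and 1071, a log2 ratio of 1.12 (SE 0.08).

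Members with short coding sequences had somewhat lower ratios. The median log2 ratio was 0.88 for the 8 members under 300 coding nucleotides, 1.02 for the 43 from there to under 600 and 1.11 for the 25 others, leaving out the 4 members with a second row. Spearman's rho of coding length and ratio was 0.26 over these 76 genes and 0.03 over the 9888 genes tested that have an annotated coding length (85.4%). The genes share libraries, and whether fragment size or RNA quality has a part in this was not tested.

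Other genes of ribosome production were also higher in Lin- cells. Of 60 ribosome assembly factors, which build subunits in the nucleolus, 59 were higher in Lin-, 0 in Gr1+Mac1+ cells, with a median log2 ratio of 1.83, above that of the ribosomal proteins. Npm1, an abundant nucleolar chaperone, was 1303, 1198 and 1207 in Lin- and 252, 221 and 262 in Gr1+Mac1+ libraries. Fbl, the methyltransferase of box C/D particles, was 352, 325 and 327 and 80.7, 82.6 and 76.2. Bysl, a small subunit assembly factor, was the exception at 36.1, 35.7 and 35.2 and 35.6, 36.6 and 34.6 (0.00 (SE 0.06, limma adjusted p = 0.952)). RNA polymerase I and its factors, which make the ribosomal RNA precursor, had 13 of 15 higher (median 1.35). Its shared subunit Polr1d was 205, 215 and 203 and 108, 99.4 and 102. The exceptions were Znrd1 and Taf1b, neither past the threshold. After rescaling by the median ratio, 57 of the assembly factors and 11 of the polymerase I genes were higher in Lin-, and 1 (Bysl) and 2 (Taf1b and Znrd1) were higher in Gr1+Mac1+ cells.

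Translation factors whose messages carry a TOP motif, as those of ribosomal proteins do, had 14 of 15 higher in Lin-, 0 in Gr1+Mac1+ cells (median 1.24). Eef1a1, which delivers aminoacyl-tRNA, was 6742, 6289.9 and 6841 in Lin- and 2772, 2748 and 2782 in Gr1+Mac1+ libraries. Eef2, the translocation factor, was 1551, 1518 and 1585 and 583, 623 and 557. Tpt1, also known as translationally controlled tumour protein, was 1632, 1809 and 1790.0 and 1732, 1470.1 and 1789.6 and did not pass (0.07 (SE 0.11, limma adjusted p = 0.569)). Some ribosomal proteins have symbols outside the name rule. Gnb2l1, which encodes Rack1, was 1763, 1654 and 1707 and 687, 669.5 and 691, with all Lin- libraries above all Gr1+Mac1+ libraries. Fau, which encodes a ubiquitin-like fusion with a small subunit protein, was 1356, 1346 and 1339.5 and 1315, 1306 and 1334 and did not pass (0.03 (SE 0.07, limma adjusted p = 0.708)). After rescaling by the median ratio Tpt1 and Fau were higher in Gr1+Mac1+ cells, at -0.37 and -0.41. Fau thus had a smaller ratio than any tested member, Rpl35a and the summed Rps27 locus included.

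The mTOR and S6 kinase list was mixed, with 12 of 15 higher in Lin-, 3 in Gr1+Mac1+ cells (median 0.80). Eif4ebp1, an inhibitor of cap-dependent translation, was 93.9, 100.1 and 100.4 and 44.7, 48.6 and 52.0. Rps6ka1, a kinase of the S6 family activated by ERK, was 32.9, 36.8 and 34.7 and 130.3, 143 and 139.9, higher in Gr1+Mac1+ cells in every pool, and Rps6ka3 and Mlst8 were the others. Mitochondrial ribosomal proteins, which serve the separate ribosome of mitochondria, had 74 of 76 higher in Lin-, 1 in Gr1+Mac1+ cells (median 1.16). Mrpl52 was 321, 310.1 and 267 and 46.2, 44.8 and 35.1, and Mrpl33, the exception, was 168, 187 and 164 and 301, 270.1 and 329.6. Cytosolic and mitochondrial ribosomal proteins thus had medians of 1.08 and 1.16. After rescaling, Lin- was higher for 64 mitochondrial genes and 9 of the mTOR and S6 kinase list, and Gr1+Mac1+ for 1 and 3. The difference between the lists was not tested.

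**Figure D4:**
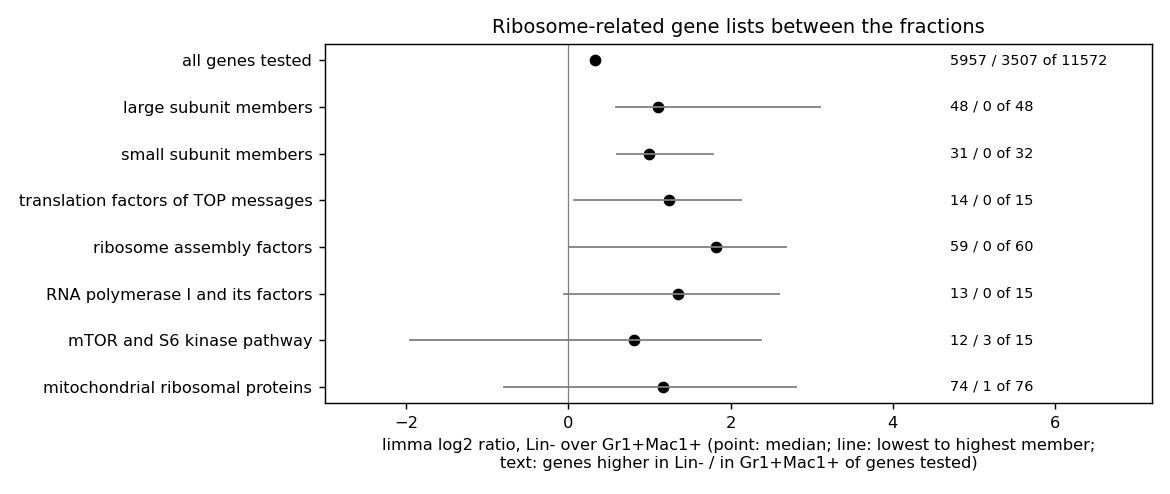
Median (point) and range (line) of the limma log2 ratio between Lin- and Gr1+Mac1+ libraries for the ribosomal proteins of each subunit and for 5 related gene lists, with the counts of genes called in either direction, of those tested, at the right. All list medians lie to the right of the median of all genes tested, 0.33, and the assembly factors lie farthest right at 1.83.

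Some short sequences were more frequent in the promoters of the members than in those of all genes, though none was found in most members. RefSeq (GRCm38.p6) windows from 250 bases before to 50 after the start were found for 63 of the 83 members. CCGGAAG, the core bound by ETS factors such as GABP, was in 26 of the 63 (41.3%) on either strand, against 9.93% of all 27025 genes in the table. CTCTTTC, on the strand of the gene and within 10 bases of the start, was in 4 (6.35%), against 0.27% of all genes, and CTTTC, which that motif contains, in 11 (17.5%), against 2.91%. CTTCC in the same place was in 10 (15.9%), against 5.02%. AAGATGGC, a match to the YY1 motif, was in 6 (9.52%) on either strand, against 3.19%, and TATAAA in the 40 bases before the start in 1 (1.59%), against 2.78%. The annotated first base was C in 29.3% of member windows and 16.3% of all windows. The windows below, from 60 bases before the start to the first 20 bases of the transcript, show the 4 members with CTCTTTC, Rpl38 with CCGGAAG and CTTTC, the Rps27 window with CTTTC, and Rps2 and Rpl14, which had the largest ratios among members with no second row. None of these exact strings was found in the printed stretch of Rps2 or Rpl14. The Rpl14 start nevertheless lies within a run of C and T, and Rps2 has cttctt within the first 20 bases of the transcript. Lack of these strings is therefore not lack of a pyrimidine run. Motifs are in capitals, and in Rpl35a they include CTTCC, which overlaps CTCTTTC, and GCCATCTT, which is AAGATGGC on the other strand. Each window is written on the strand of the gene, minus for Rpl35 and Rps27 and plus for the others, and for Rpl35a, which has several annotated starts, only the window with CTCTTTC is shown.
Rpl18 chr7:45718011-45718090: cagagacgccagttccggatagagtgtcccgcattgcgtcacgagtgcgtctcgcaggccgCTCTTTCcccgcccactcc
Rpl28 chr7:4792905-4792984: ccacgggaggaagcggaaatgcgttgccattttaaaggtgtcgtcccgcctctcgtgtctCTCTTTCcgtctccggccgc
Rpl35 chr2:39005112-39005191: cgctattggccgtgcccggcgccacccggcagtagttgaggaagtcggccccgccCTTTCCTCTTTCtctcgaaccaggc
Rpl35a chr16:33056422-33056501: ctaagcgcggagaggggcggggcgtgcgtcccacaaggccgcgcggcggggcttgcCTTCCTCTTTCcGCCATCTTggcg
Rpl38 chr11:114668520-114668599: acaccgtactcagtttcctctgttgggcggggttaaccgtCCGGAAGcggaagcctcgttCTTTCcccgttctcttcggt
Rps27 chr3:90213629-90213708: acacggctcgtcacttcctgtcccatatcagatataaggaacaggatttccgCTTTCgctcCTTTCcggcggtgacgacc
Rps2 chr17:24720003-24720082: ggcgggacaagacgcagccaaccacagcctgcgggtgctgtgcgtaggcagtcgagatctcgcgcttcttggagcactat
Rpl14 chr9:120571457-120571536: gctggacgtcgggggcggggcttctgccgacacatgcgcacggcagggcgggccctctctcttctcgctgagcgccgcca
Members with and without CCGGAAG had median log2 ratios between the fractions of 1.07 (23 members) and 1.05 (34). Those with CTTTC near the start had 1.11 (9 members) and those without 1.05 (48). For CTCTTTC the medians were 1.17 (4) with and 1.03 (53) without, and for CTTCC 0.94 (9) and 1.07 (48). AAGATGGC had 0.91 (5) and 1.07 (52), and TATAAA 0.92 (1) and 1.06 (56). These differences were not tested. A match is a string of letters and not a measured site.

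Between genotypes the ribosomal proteins moved little, and the only members past a rule of size set at 2-fold were Rps27 and Rpl26, both with a second row at their locus. With 1 library per group there is no test between genotypes. A gene counted as higher or lower when it changed at least 2-fold on log2(FPKM + 1), reached an FPKM of 5 in the higher library, had status OK and had deposited bounds that did not overlap. In KO against WT Lin- cells 1 of 80 members was higher (Rps27) and 0 lower, and of all measured genes 0.136% were higher and 0.0363% lower. In Het against WT Lin- cells it was again Rps27 alone (background 1.29% higher and 0.0636% lower). In KO against Het Lin- cells 0 members passed (0.0909% and 1.15%). In KO against WT Gr1+Mac1+ cells Rps27 was higher (0.0441% and 0.0971%). In Het against WT Gr1+Mac1+ cells Rpl26 was lower (0.0353% and 0.0971%). In KO against Het Gr1+Mac1+ cells both were higher (0.0618% and 0.0706%). For Rps27 the values in Gr1+Mac1+ libraries were 5.79 (bounds 3.25 to 8.33) in WT, 8.53 (bounds 0 to 22.4) in Het and 571 (bounds 521 to 621) in KO. With the rows of each locus summed, 0 members passed in any of the 6 comparisons. The second rows make up most of these sums, so this does not show whether a member's own level changed. The summed Rps27 locus then had log2 ratios of 0.077 (KO) and 0.084 (Het) against WT in Lin-, and -0.042 and -0.20 in Gr1+Mac1+ cells.

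The remaining members can be described only by small ratios. The comparisons within a fraction share libraries, so their values stand side by side and not as independent results. Of the 76 members with no second row, 74 of the KO against WT ratios in Lin- lay within 0.2 of 0 on the log2 scale, and all 76 did so in Gr1+Mac1+ cells. For Het against WT these counts were 75 and 70, and for KO against Het 75 and 71. In Lin- cells 59 of 80 members had a positive KO to WT ratio, with a median of 0.048, while 50.7% of all genes did. In Gr1+Mac1+ cells 33 of 80 were positive, with a median of -0.021, against 51.8% of all genes. For Het against WT the counts were 42 (median 0.0055) for Lin-, and for Gr1+Mac1+ cells 16 (median -0.054), against 49.9% and 49.7% of all genes. For KO against Het they were 65 (0.050) and 57 (0.033), against 49.7% and 50.8%. Marker lists moved in the same libraries. For KO against WT in Lin-, 7 of 8 stem and progenitor (median 0.21), 8 of 11 secondary and tertiary granule (0.34), 5 of 5 stromal (0.31) and 6 of 9 erythroid markers (0.039) had positive ratios. Negative ratios were found for 5 of 6 megakaryocyte (-0.42), 6 of 7 T and NK (-0.36), 3 of 4 B lineage (-0.42) and 3 of 5 primary granule markers (-0.028). Erythroid markers in Gr1+Mac1+ cells were negative in 9 of 9 for both KO (-0.89) and Het (-0.52) against WT, and the stromal markers positive in 5 of 5 (0.61 and 0.67). The part of these cell types in the members' ratios was not tested.

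Because their counts are high, members could differ in deposited bounds at small ratios. The bounds of KO and WT Lin- libraries did not overlap for 38 of 76 members that were higher in KO and 6 that were lower, against 6.13% and 7.34% of all measured genes. Among the 139 genes with a mean FPKM of at least 400 that are not ribosomal proteins, whose bounds are also narrow, the shares were 16.5% and 19.4%. In Gr1+Mac1+ cells the KO and WT bounds were apart for 3 higher and 11 lower members, against 5.23% and 5.54% of all genes and 43.9% and 10.8% of the 139 abundant genes of that fraction. Het against WT gave 14 higher and 14 lower in Lin- (8.37% and 6.17% of all genes, 11.5% and 22.3% of the abundant genes). In Gr1+Mac1+ cells it gave 3 and 31 (8.23% and 8.45%, 21.6% and 36.0%). KO against Het gave 34 and 0 in Lin- (3.55% and 7.37%, 16.5% and 14.4%). In Gr1+Mac1+ cells it gave 24 and 3 (9.41% and 9.08%, 41.7% and 8.63%). The bounds come from single libraries and hold no spread between mice, so these counts say that libraries differed and not that genotypes did.

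Single members at the edges of these distributions were few. Rps21, on the small subunit body, had the highest KO to WT ratio in Lin- cells among the 76, 0.35, from 1489 (bounds 1440.3 to 1537) in WT to 1892 (bounds 1835 to 1949) in KO, with 1643 in Het. In Gr1+Mac1+ cells its values were 983, 936 and 898, highest in WT. Rpl41 had the lowest, -0.20, and its Het value lay beside that of KO. Rpl22l1 had the widest spread in Gr1+Mac1+ cells, with 142 (bounds 130.5 to 154) in WT, 105 (bounds 94.2 to 115) in Het and 159 (bounds 145 to 173) in KO, so that Het was below both others, and its KO to Het ratio passed the rule when that was set at 1.5-fold. Its processed copy Gm15421, which differs at 1 of 347 aligned nucleotides, was 22.8, 16.7 and 26.7 in the same libraries. Rpl39 also had its lowest Gr1+Mac1+ value in Het, 1071, against 1279.9 in WT and 1339 in KO. Rpl5 and Rpl11 were higher in KO than in WT Lin- by 0.15 and 0.16. Rps19 and Rps14 had KO to WT ratios of -0.047 and -0.018 in Lin-, and -0.0015 and 0.011 in Gr1+Mac1+ cells.

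**Figure D5:**
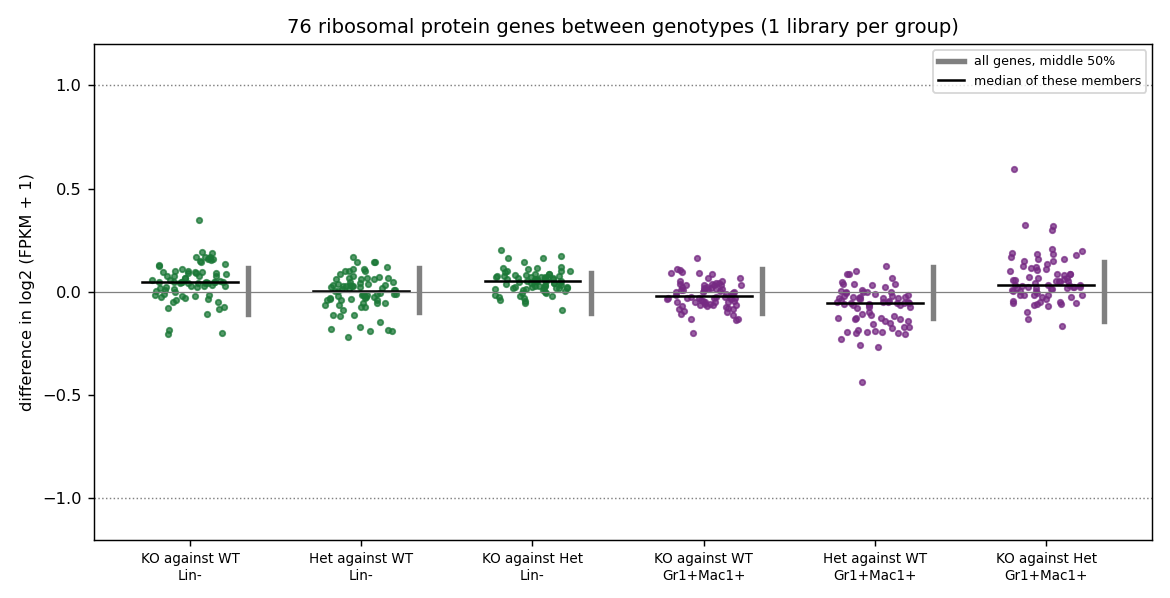
Difference in log2(FPKM + 1) between genotypes within each fraction for the 76 ribosomal protein genes with no second row at their locus (points), with their median (black) and the middle 50% of all measured genes (grey bars); dotted lines mark 2-fold. No point reaches 2-fold, and the widest are Rpl22l1 at 0.60 in KO against Het Gr1+Mac1+ and at -0.43 in Het against WT.

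The assembly factors had their own values between genotypes, and the difference from the members was not tested. In Lin- cells 54 of 60 had a negative KO to WT ratio (median -0.14) and 55 of 60 a negative Het to WT ratio (-0.14), against 50.7% and 49.9% of all genes with a positive one. Both ratios share the WT library. KO against Het, which does not use it, gave 31 of 60 positive (median 0.0024). In Gr1+Mac1+ cells 38 of 60 were negative for KO against WT (-0.058) and 29 of 60 for Het against WT (0.012). None of the 60 passed the rule of size in any comparison. The WT Lin- value of Npm1, 1303, lay above those of Het (1198) and KO (1207). Mitochondrial ribosomal proteins had medians of -0.11 (KO) and -0.09 (Het) against WT in Lin- cells, with 56 and 58 of 76 negative. The TOP-bearing translation factors stood at -0.010 and -0.031.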

How the data were processed

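The authors deposited 1 table of FPKM per library with 23746 rows. Per the file headers, each value comes with its status and its bounds. Per the submitters' processing notes, TopHat2 2.0.7, Cufflinks 2.0.2 and the build mm10 were used; the sources used here do not give their roles, the annotation, the strand setting or the level of the bounds. No fragment counts are in the tables. Depth was read from the bounds of rows with status OK and a positive lower bound, taking the upper bound as 2 counting SDs above the value. Of such genes with under 50 implied fragments, 60.8% to 63.3% then gave a whole number within 0.05.

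Lin- and Gr1+Mac1+ libraries were compared on log2(FPKM + 1) by limma 3.58.1 with trend in R 4.3.3, over all 6 libraries for 11572 genes with a mean FPKM of at least 1. Ratios on this scale understate changes of low genes. The pool was a block, because per the labels' protocols each pool of mice gave both of its fractions, and 2 residual degrees of freedom remained. Adjusted p-values (Benjamini-Hochberg) under 0.05 over all genes were called. The fit was also run on simulated data with the same spread for all genes. The outcome is not given here, so this run lends no support to the calls. Genotypes have 1 library per group and were compared by the rule of size only, in 6 comparisons. Nothing in the labels says that the pools repeat one condition, so p-values measure only the spread between these 3 pools. Copies were searched with blastn 2.17.0 (e-value 1e-10) among GENCODE M21 transcripts. Other steps used Python 3.11.15, pandas 2.3.3, numpy 2.4.6, scipy 1.17.1 and matplotlib 3.10.9.

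The members, the 21 gene lists (314 of 316 symbols listed) and the tests were chosen with earlier results of these data known. The list of ribosomal proteins outside the name rule is not reported here as a whole. Every member may be named; values in every library are given for the 3 most and least abundant members of each subunit, the 5 largest and 5 smallest ratios between fractions, members not past the threshold, members past the rule of size, paralogs, Rps14, Rps19, Rpl5, Rpl11 and the P stalk, and the most abundant genes of other lists. Rps21, Rpl41, Rpl39, Bysl, Fau, Tpt1 and the other exceptions were named after their values were seen. Alternatives were other pseudocounts (0.1 and 5), level filters, rescaling, fits without the pool block or trend, leaving out each pool, other folds (3 and 1.5), no bound criterion, leaving out unstable members (Rps27 and Rpl26, at least 2-fold between genotypes) and, chosen after seeing the data, summing the rows of 1 locus.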

Additional observations from a re-analysis of the deposited data

Results flagged for a closer look

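The median ratio of the members had opposite signs in the fractions for both comparisons with WT. For KO against WT Lin- had 0.048 but Gr1+Mac1+ -0.021, and for Het against WT these values were 0.0055 and -0.054. KO against Het had the same sign in both, at 0.050 and 0.033. Each value is from 1 pair of libraries, both comparisons of a fraction share its WT library, and the difference between the fractions was not tested.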

How the results depend on the processing

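The count of members higher in Lin- stayed between 75 and 80 under every alternative run, with 79 without the replicate block on the pool, 78 to 79 when a pool was left out and 78 without the unstable members, and the block changed no call of a member. Members higher in Gr1+Mac1+ cells were 1 without a filter on low values (Rpl3l) and 0 to 1 when a pool was left out. That 1 was Rps27 without the Het pool, at -0.48 (limma adjusted p = 0.0308) in a range of -0.48 to 2.845 over the pools left out, the only reversal; its cause was not tested beyond the second row at the locus. The difference in summed share was 12.7 to 13.5 percentage points with a pool left out. It was 11.92 as a ratio to the total without the 10 most abundant genes, with all members kept in the sum. Of the genotype counts, all 5 that were above 0 fell to 0 with the rows of 1 locus summed, where the second rows make up most of each sum. They also fell to 0 without the unstable members, which was fixed in advance. Unstable members are those that differ at least 2-fold between genotypes, so every member past the rule of size is among them. At 1.5-fold 2 members passed in KO against Het Lin- and 2 in KO against WT Gr1+Mac1+ cells, in each case Rps27 and Rpl26, and 3 in KO against Het Gr1+Mac1+ cells, where Rpl22l1 (0.60), which has no second row at its locus, was the third. The share of all measured genes that pass at 1.5-fold is not given here, so whether these counts exceed it cannot be read. Unstable members were 2 at 2-fold, 3 at 1.5-fold and 0 with summed rows. Depth limits little for members, whose bounds lie within 3.05% in the median, but 1 library per group leaves differences between genotypes without an error.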
